A study of Mus musculus with 18 samples.

Results

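The unfolded protein response and the integrated stress response were described through 35 genes, taken by symbol from a table of 18946 genes measured in mouse liver. All 35 symbols were found, and all 35 passed the filter on low values (at least 0.5 TPM in at least 8 libraries). By role they comprised 14 chaperones and folding enzymes of the endoplasmic reticulum (ER), 4 sensors and transcription factors, 6 genes of the ATF4-CHOP branch, 8 genes of ER-associated degradation (ERAD) and 3 genes of protein translocation into the ER. The livers came from male C57BL/6J mice, an inbred strain with no engineered allele named in the labels. The Young group had 8 mice labelled 6.18 months old and the Old group had 10 mice labelled 19.76 months old. The growth protocol and the design text give other rounded ages for the Old mice. Every mouse had been fasted overnight and then infused with insulin at constant blood glucose, a procedure called a hyperinsulinemic-euglycemic clamp, and no liver without insulin infusion was part of the series. RNA had been extracted with the AllPrep kit in 3 Young and 5 Old mice and with the RNeasy kit in 5 Young and 5 Old mice.

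Secreted and membrane proteins fold in the ER, and the hepatocyte, which makes most plasma proteins, carries a large ER. When unfolded proteins accumulate there, the sensors IRE1 (gene Ern1), ATF6 and PERK (gene Eif2ak3) are activated. IRE1 splices the mRNA of the transcription factor XBP1, ATF6 is cut to release a transcription factor, and both raise chaperone and ERAD genes. PERK phosphorylates the translation factor eIF2, which favours translation of ATF4. The same step is reached from amino acid shortage through the kinase GCN2, hence the name integrated stress response. ATF4 and its target CHOP (gene Ddit3) act on genes of amino acid supply and of recovery from the translation block. Splicing, cleavage and phosphorylation are not read by gene-level RNA values.

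Whole read numbers could be recovered from the deposited values and summed to 85790735 to 127487820 per library. The members ranged from 13 reads (Asns in 1 Old library) to 133637 reads (Hsp90b1). Old replicate 14 stood apart from the other libraries, with a median correlation of 0.935 across genes against 0.967 to 0.985 for the others, and values without it are given beside several results, calls that it decides included. Hepatocyte markers were present in every library, and by limma 0 of 12 were called for age (3 before adjustment, at p under 0.05), with a summed level of 121956 to 165896 scaled TPM in Young and 128911 to 179590 in Old. Markers of plasma and B cells had 5 of 13 tested genes higher in Old, with summed levels of 55.8 to 150.3 in Young and 156.6 to 788.9 in Old that did not overlap. The other 7 marker lists had 0 of 50 tested genes called in limma (12 at an unadjusted p under 0.05). In bulk tissue, fewer cells of a type and less RNA per cell cannot be told apart.

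Age was compared with limma on log2(scaled TPM + 0.5) over 13895 genes, with the extraction kit as a term, and a gene was called at a Benjamini-Hochberg adjusted p under 0.05 over all of them. Levels are TPM, which are per gene length, scaled between libraries, and fold changes are Old against Young. Of the 35 members, 1 was called higher in Old, the CHOP gene Ddit3, where 2.43% of all genes were called higher. None of the members was called lower in Old by limma or by limma-voom on recovered reads, where 2.48% of all genes were called lower (4.91% in either direction). At an unadjusted p under 0.05, 17 members were lower and 2 higher, against 11.7% and 11.8% of all genes. The log2 fold was below 0 for 29 of 35 members and for 49.2% of all genes tested. Young and Old values overlapped for each of the 35, while 0.202% of all genes were lower and 0.216% higher in Old with no overlap. Leaving out 1 library changed the number of members called lower to between 0 and 4, with calls when Young replicate 4 or Old replicate 5, 6, 14, 16 or 17 was the one left out.

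**Figure D1:**
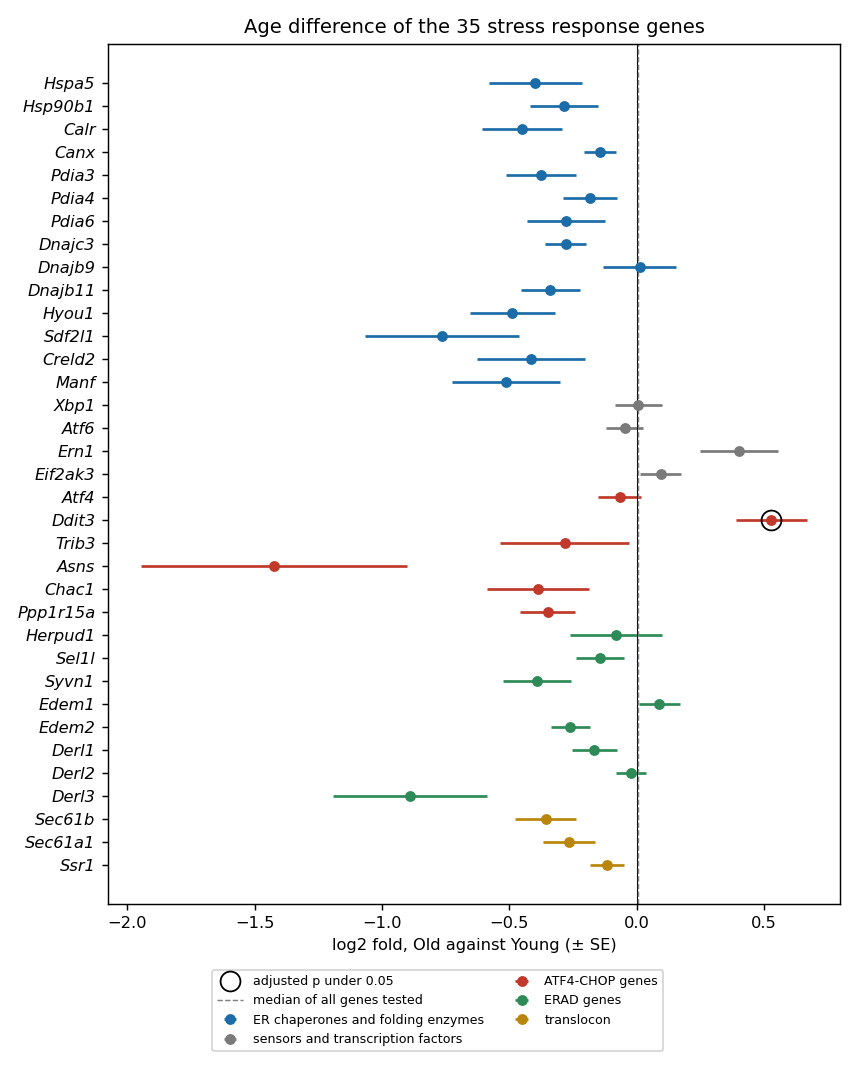
Points give the log2 fold of Old against Young for each of the 35 genes (x axis, log2 scale) and bars its standard error, grouped and coloured by role. The chaperones lie to the left of 0 except Dnajb9 at 0.011, and Ddit3 at 0.53 is the called gene, marked by a ring.

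The 14 ER chaperones and folding enzymes had a median log2 fold of -0.36, against 0.0033 for all genes tested. For 13 of the 14 the log2 fold was below 0 and for 10 it was below 0 at an unadjusted p under 0.05, but none passed the adjusted threshold. Within AllPrep libraries the median was -0.56, and within RNeasy libraries it was -0.24, or -0.15 when Old replicate 14 was left out too. Calr was the most abundant of the 35 genes, followed by Hsp90b1 and Hspa5.

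Hspa5 encodes BiP, the ER Hsp70 chaperone that also holds the sensors inactive. Its level in Young mice was lowest at 398, had a median of 649 and was highest at 830 scaled TPM, and in Old mice the same 3 values were 282, 477 and 672. In 9 of 10 Old mice it lay below the Young median, although only 3 lay below the lowest Young mouse. Young mice averaged 615 ± 134 (SD, n = 8) and Old mice 481 ± 139 (SD, n = 10), for a log2 fold of -0.40 ± 0.18 (SE, adjusted p = 0.194 by limma).

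Hspa5 has in its promoter the ER stress response element (ERSE), the letters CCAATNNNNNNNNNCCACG, which is the site bound by NF-Y together with ATF6 or XBP1. The windows that hold it among the members are shown because they mark which of the chaperone and ERAD genes searched carry these exact letters next to their start. Sequences are from RefSeq promoters of build GRCm38.p6 (250 bases before to 50 after the annotated start), on the gene's strand, 5′ to 3′, with the motif in capitals and 15 bases on each side. Where the motif lies on the other strand the capitals begin with CGTGG.
Hspa5: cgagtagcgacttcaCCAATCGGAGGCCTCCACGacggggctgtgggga
Calr: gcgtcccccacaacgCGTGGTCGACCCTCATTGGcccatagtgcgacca
Hsp90b1, distal copy: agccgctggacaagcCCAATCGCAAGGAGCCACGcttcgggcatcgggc
Hsp90b1, proximal copy: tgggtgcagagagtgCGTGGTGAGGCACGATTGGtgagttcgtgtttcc
Canx: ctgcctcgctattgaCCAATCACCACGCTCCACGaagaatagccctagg
Pdia6: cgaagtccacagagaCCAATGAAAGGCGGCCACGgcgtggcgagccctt
Dnajc3: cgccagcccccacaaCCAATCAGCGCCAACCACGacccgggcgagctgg
Creld2: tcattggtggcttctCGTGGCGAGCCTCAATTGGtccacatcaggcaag
Syvn1: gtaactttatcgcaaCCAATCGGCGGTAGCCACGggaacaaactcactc
Derl3: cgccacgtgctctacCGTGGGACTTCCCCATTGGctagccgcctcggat

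These windows lie at chr2:34772010-34772058 on the plus strand for Hspa5, chr8:84847060-84847108 on the minus strand for Calr, chr10:86705623-86705671 and chr10:86705518-86705566 on the minus strand for Hsp90b1, and chr11:50325785-50325833 on the minus strand for Canx. The others lie on the plus strand, at chr12:17266476-17266524 for Pdia6, chr14:118937812-118937860 for Dnajc3, chr15:88819505-88819553 for Creld2, chr19:6046517-6046565 for Syvn1 and chr10:75893227-75893275 for Derl3. Of the 35 members, 30 had a promoter in the table, while Hyou1, Manf, Atf6, Derl1 and Sec61a1 had none and were not searched. The exact letters, searched on both strands, were in 9 of those 30 genes (30.0%) and in 39 of 32851 promoters of the same length (0.119%). The related ERSE-II, letters ATTGGNCCACG, was in the promoters of Herpud1 and Dnajb11 and in 0.0365% of all promoters, and it shares no base with an ERSE match in these windows. The motif TGACGTGG, a core of the XBP1 site called UPRE, was in 0 of the 30 and in 0.676% of all. A match describes the letters only. The 9 genes with ERSE had log2 folds from -0.89 to -0.14 (median -0.39), and 9 of 9 were below 0. Of the 21 members with a promoter and without these letters 15 were below 0, and their median was -0.14. The 9 were all chaperones or ERAD genes, whereas the 21 also held sensors, ATF4-CHOP genes and translocon genes. The chaperones among the 21 had log2 folds of -0.38 (Pdia3), -0.18 (Pdia4), 0.011 (Dnajb9), -0.34 (Dnajb11) and -0.77 (Sdf2l1). No test was made of the difference between the 9 and the 21, since related genes are not replicates.

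Calr, the calcium-binding lectin chaperone calreticulin, had levels of 509, 883 and 1343 scaled TPM (lowest, median, highest) in Young and 418, 635 and 1053 in Old. In 9 of 10 Old mice it lay below the Young median. Old replicate 5 was the exception, and the log2 fold was -0.45 ± 0.16 (SE, adjusted p = 0.101 by limma). Its membrane-bound relative Canx, calnexin, had nearly equal medians of 270 and 269 scaled TPM over both kits together. Within the kits its Young and Old medians were 331 and 288 in AllPrep and 265 and 243 in RNeasy. The log2 fold of Canx was -0.14 ± 0.064 (SE, adjusted p = 0.185 by limma). Pdia3, the disulfide isomerase that works with both lectins, had levels of 236, 330 and 464 scaled TPM in Young and 157, 285 and 376 in Old. Its log2 fold was -0.38 ± 0.14 (SE, adjusted p = 0.111 by limma).

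Hsp90b1, the ER Hsp90 known as GRP94, had levels of 588, 801 and 996 scaled TPM in Young and 411, 688 and 865 in Old, with 8 of 10 Old mice below the Young median. Its log2 fold was -0.29 ± 0.13 (SE, adjusted p = 0.202 by limma). The isomerases Pdia4 and Pdia6 had log2 folds of -0.18 and -0.28, with adjusted p of 0.308 and 0.290 in limma.

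Among the partners of BiP, Hyou1 and Sdf2l1 had the wider differences. Hyou1, the large Hsp70 relative that exchanges nucleotide on BiP, had levels of 89.5, 143 and 158 scaled TPM in Young and 64.0, 91.6 and 142 in Old. All 10 Old mice lay below the Young median and 5 below the lowest Young mouse, and the log2 fold was -0.49 ± 0.17 (SE, adjusted p = 0.0920 by limma). Sdf2l1, a small partner of the ER J-proteins, had levels of 11.2, 32.5 and 48.0 scaled TPM in Young and 8.55, 16.6 and 30.3 in Old. Its Old mean was 0.584 times the Young mean, with a log2 fold of -0.77 ± 0.30 (SE, adjusted p = 0.139 by limma), and again all 10 Old mice lay below the Young median.

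Of the J-proteins that drive BiP, Dnajc3 came closest to the threshold. It had levels of 114, 130 and 150.2 scaled TPM in Young and 87.8, 108 and 137 in Old, with 7 of 10 Old mice below the lowest Young mouse. The log2 fold was -0.28 ± 0.080 (SE, adjusted p = 0.0515 by limma). Median-of-ratios scaling gave a call (adjusted p = 0.0490 by limma), as did leaving out Young replicate 4 (0.0460), Old replicate 5 (0.0481), Old replicate 16 (0.0166) or Old replicate 17 (0.0406). Dnajb11 had 10 of 10 Old mice below the Young median, at a log2 fold of -0.34 ± 0.11 (SE, adjusted p = 0.0913 by limma), and was called without Young replicate 4 (-0.41, 0.0461). Hyou1 was called without Old replicate 16 (-0.58, 0.0381). Dnajb9, the J-protein best known as an IRE1-XBP1 target, stood at 0.011 ± 0.14 (SE, adjusted p = 0.974 by limma), with medians of 71.3 and 69.0 scaled TPM.

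Creld2 and Manf, which encode secreted ER stress proteins, varied widely among mice of either age. Manf had levels of 107, 204 and 269 scaled TPM in Young and 69.1, 126 and 202 in Old, with 10 of 10 Old mice below the Young median, and a log2 fold of -0.51 ± 0.21 (SE, adjusted p = 0.154 by limma). Creld2 had medians of 52.8 and 37.7 scaled TPM and a log2 fold of -0.41 ± 0.21 (SE, adjusted p = 0.251 by limma).

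**Figure D2:**
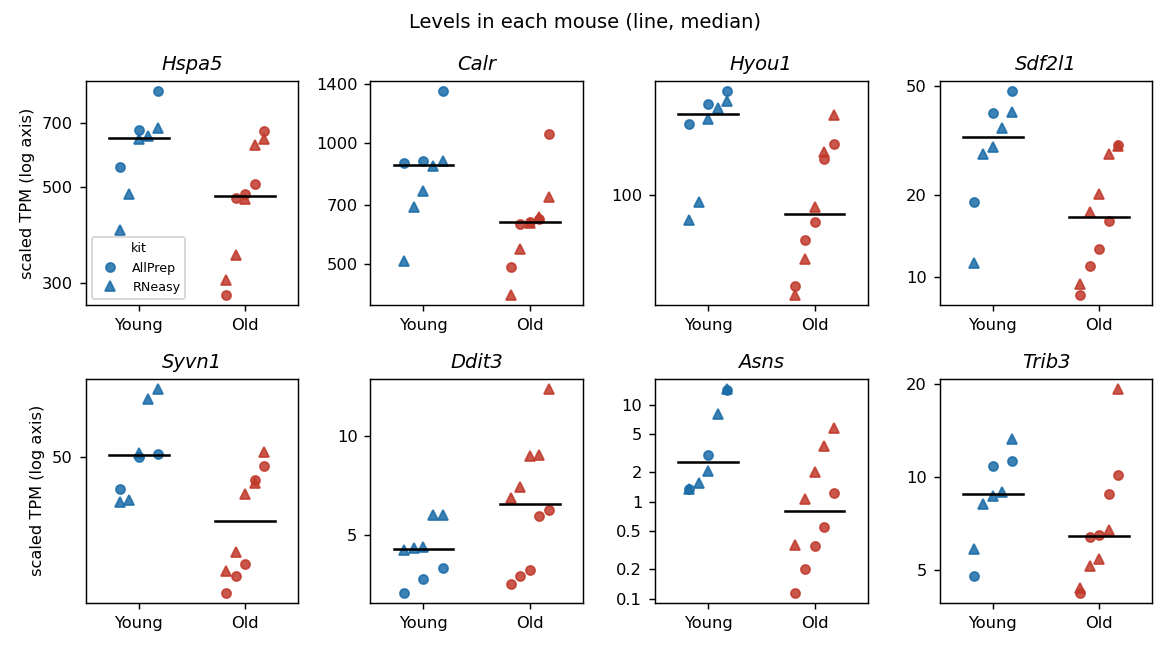
Each point is the level of 1 mouse in scaled TPM (log axis), for 8 genes in Young and Old mice, with circles for AllPrep, triangles for RNeasy and a line at the median. All 10 Old mice lie below the Young median for Hyou1 and Sdf2l1, whereas 7 of 10 lie above it for Ddit3.

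The sensors and transcription factors had a median log2 fold of 0.050 (0.021 without Old replicate 14), and 1 of 4 was below 0. None was called in limma, and 1 passed an unadjusted p of 0.05. Ern1, which encodes IRE1, had levels of 12.6, 21.4 and 29.1 scaled TPM in Young and 21.2, 26.2 and 46.8 in Old. In 9 of 10 Old mice it lay above the Young median, and the highest value was that of Old replicate 14. The log2 fold was 0.40 ± 0.15 (SE, adjusted p = 0.123 by limma), and 0.30 without that library (adjusted p = 0.151 by limma). Xbp1 stood at 0.0064 ± 0.092, Atf6 at -0.047 ± 0.073 and Eif2ak3, which encodes PERK, at 0.094 ± 0.082 (SE). The Xbp1 value counts spliced and unspliced mRNA together.

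Of the 6 genes of the ATF4-CHOP branch 1 was called higher, 5 had a log2 fold below 0, and the median was -0.32. At an unadjusted p under 0.05, 2 were lower and 1 was higher. Ddit3, the transcription factor CHOP, had levels of 3.34, 4.55 and 5.75 scaled TPM in Young and 3.57, 6.23 and 13.9 in Old, from 324 to 1970 reads. In 6 of 10 Old mice it lay above the highest Young mouse, and in 3 below the Young median. It rose by 0.53 ± 0.14 on the log2 scale (SE, adjusted p = 0.0387 by limma), with means of 4.52 ± 0.88 (SD, n = 8) and 6.77 ± 3.11 (SD, n = 10).

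The levels of Ddit3 differed with the extraction kit as well. In RNeasy libraries it ran from 4.52 to 5.75 scaled TPM in 5 Young mice and from 6.49 to 13.9 in 5 Old mice. In AllPrep libraries it ran from 3.34 to 3.98 in 3 Young mice and from 3.57 to 5.96 in 5 Old mice, so that the kits gave log2 folds of 0.73 (adjusted p = 0.206 by limma) and 0.26 (0.439). The difference between the kits was -0.47 ± 0.27 (SE, AllPrep minus RNeasy, adjusted p = 0.975 by limma). Without the kit term the value of 0.44 did not pass (adjusted p = 0.222 by limma). Without Old replicate 14, the highest library, it was 0.43 and was called (adjusted p = 0.0283 by limma). In RNeasy libraries alone without that mouse it was 0.56 (adjusted p = 0.0695 by limma). The call was lost in 11 of the 18 fits that left out 1 library, namely Young replicates 1, 2, 3, 4, 10, 11 or 12 and Old replicates 5, 9, 15 or 17, with adjusted p from 0.0283 to 0.0749 over the 18 fits in limma. Over all alternatives run the adjusted p of Ddit3 was 0.0228 to 0.439.

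Atf4 itself, whose product is controlled by translation, had medians of 121 and 111 scaled TPM and a log2 fold of -0.066 ± 0.084 (SE, adjusted p = 0.664 by limma). Like Ddit3 it was lower in AllPrep libraries, at 74.2 to 110 scaled TPM in Old against 112 to 146 in RNeasy. Asns, the asparagine synthetase induced by ATF4, varied more than any other member: its levels were 1.34, 2.55 and 14.5 scaled TPM in Young and 0.115, 0.804 and 5.78 in Old, from 13 to 1858 reads. In 7 of 10 Old mice it lay below the lowest Young mouse. The spread among Young mice, 5.76 ± 5.75 (SD, n = 8), was as large as their mean, and the log2 fold of -1.42 ± 0.52 (SE, adjusted p = 0.115 by limma) was not called.

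The remaining targets had levels close to or below those of Young mice. Ppp1r15a, the GADD34 subunit that leads the phosphatase back to eIF2, had levels of 13.6, 18.5 and 21.0 scaled TPM in Young and 10.3, 13.3 and 21.4 in Old. In 7 of 10 Old mice it lay below the lowest Young mouse, and Old replicate 16 lay above all Young mice. The log2 fold was -0.35 ± 0.11 (SE, adjusted p = 0.0676 by limma), and without that library it was -0.42 and called (0.0154). Trib3, a pseudokinase that restrains AKT, had medians of 8.83 and 6.46 scaled TPM and a log2 fold of -0.28 ± 0.25 (SE, adjusted p = 0.524 by limma), with Old replicate 14 highest at 19.3. Without that library the value was -0.47 (adjusted p = 0.147 by limma). Chac1, which degrades glutathione, had medians of 1.67 and 1.32 scaled TPM and a log2 fold of -0.39 ± 0.20 (SE, adjusted p = 0.254 by limma).

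ATF4 and CHOP with C/EBP partners bind elements of the form TGATGNAA, here called CARE. They are shown for the 2 targets of this branch that hold the letters before the start and for Herpud1, which holds both kinds of element, with the motif in capitals as above (TTGCATCA is the motif on the other strand).
Asns: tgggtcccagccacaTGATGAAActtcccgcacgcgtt
Chac1: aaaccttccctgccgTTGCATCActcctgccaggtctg
Herpud1, CARE: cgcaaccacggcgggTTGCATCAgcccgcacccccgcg
Herpud1, ERSE-II: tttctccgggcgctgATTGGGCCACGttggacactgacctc

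These windows lie at chr6:7693210-7693247 on the minus strand for Asns, chr2:119351034-119351071 on the plus strand for Chac1, and chr8:94386302-94386339 and chr8:94386362-94386402 on the plus strand for Herpud1 (GRCm38.p6, RefSeq). The letters were in 4 of the 30 members with a promoter (13.3%), the other being Trib3, and in 3.97% of all promoters. The Ddit3 and Ppp1r15a windows held none of these letters.

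The 8 ERAD genes had a median log2 fold of -0.16, and 7 of 8 were below 0. None was called in limma, and 3 were below 0 at an unadjusted p under 0.05. Syvn1, the ubiquitin ligase HRD1, had levels of 41.3, 50.3 and 66.7 scaled TPM in Young and 28.1, 38.1 and 51.0 in Old. In 9 of 10 Old mice it lay below the Young median and in 5 below the lowest Young mouse, with a log2 fold of -0.39 ± 0.13 (SE, adjusted p = 0.0912 by limma). Its partner Sel1l stood at -0.14 ± 0.093 (SE, adjusted p = 0.360 by limma).

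Edem1 and Edem2 trim mannose from misfolded glycoproteins and had values of opposite sign. Edem2 stood at -0.26 ± 0.075 (SE, adjusted p = 0.0546 by limma) and was called without Old replicate 5 (0.0386), 6 (0.0409) or 16 (0.0289). Edem1 stood at 0.089 ± 0.079 (SE, adjusted p = 0.520 by limma). Herpud1, which gathers the HRD1 complex, stood at -0.081 ± 0.18 (SE, adjusted p = 0.819 by limma) with medians of 298 and 275 scaled TPM.

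Of the derlins, which help move ERAD substrates out of the ER, Derl1 stood at -0.17 ± 0.088 and Derl2 at -0.023 ± 0.059 (SE). Derl1 was called without Old replicate 14 (-0.23, adjusted p = 0.0398 by limma). Derl3, a strong target of the unfolded protein response, was far lower expressed, at 1.11, 3.07 and 6.77 scaled TPM in Young and 0.557, 1.63 and 4.78 in Old, from 32 to 347 reads. In 9 of 10 Old mice it lay below the Young median and Old replicate 5 was the exception. The log2 fold was -0.89 ± 0.30 (SE, adjusted p = 0.0916 by limma), and the gene was called without Young replicate 4 (-1.07, 0.0447) or Old replicate 5 (-1.04, 0.0280). Derl3 is also abundant in plasma cells, whose markers were higher in Old livers, and their part in its level was not tested.

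For the translocon, the medians of Sec61b, Sec61a1 and Ssr1 were 91.6, 128 and 19.7 scaled TPM in Young and 73.0, 110 and 19.1 in Old. Sec61a1 forms the channel, Sec61b is its small subunit and Ssr1 belongs to the associated TRAP complex. Their log2 folds were -0.26 ± 0.10, -0.36 ± 0.12 and -0.12 ± 0.066 (SE) for Sec61a1, Sec61b and Ssr1, with limma adjusted p of 0.131, 0.0910 and 0.300. Without Old replicate 14 Sec61a1 (-0.32, adjusted p = 0.0379 by limma) and Sec61b (-0.42, 0.0354) were called.

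Set side by side, the 22 chaperone and ERAD genes had 20 log2 folds below 0 with a median of -0.28 and 0 calls in limma (13 at an unadjusted p under 0.05), and the 6 ATF4-CHOP genes had 5 below 0 with a median of -0.32 and 1 call in the other direction. Over all genes tested 49.2% were below 0, 11.7% were lower at an unadjusted p under 0.05 and 2.48% were called lower. Taken apart, the chaperones had a median of -0.36 and the ERAD genes of -0.16. Ddit3 was the member of the ATF4-CHOP branch with a log2 fold above 0. The ratio of Hspa5 to Ddit3 ran from 87.0 to 225 in Young mice, with a median of 129, and from 22.0 to 143 in Old mice, with a median of 74.7. The lowest ratio was that of Old replicate 14, and the groups overlapped.

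Within the kits the differences had the same sign for most members but unlike sizes. In AllPrep against RNeasy libraries the log2 folds were -0.54 and -0.29 for Hspa5, -0.62 and -0.32 for Calr, -0.67 and -0.36 for Hyou1, -0.77 and -0.32 for Manf and -1.19 and -0.44 for Sdf2l1. For Asns they were -2.28 and -0.76, for Derl3 -1.30 and -0.57, and for Dnajc3 -0.42 and -0.17. Among the translocon genes they were -0.66 and -0.13 for Sec61b and -0.47 and -0.11 for Sec61a1. Values were close in both kits for Syvn1 (-0.42 and -0.37), Ppp1r15a (-0.33 and -0.36) and Ern1 (0.38 and 0.42). The RNeasy value of Ern1 includes Old replicate 14 at 46.8 scaled TPM, where the other Old RNeasy mice ran from 21.8 to 26.0. Signs were opposite for Dnajb9 (-0.25 and 0.21), Xbp1 (-0.17 and 0.14), Atf4 (-0.21 and 0.038), Herpud1 (-0.23 and 0.027) and Derl2 (-0.17 and 0.083). The lowest limma adjusted p of a member within a kit was 0.102 in AllPrep (Sec61b) and 0.206 in RNeasy (Ddit3), so that no call was made there.

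Leaving out Old replicate 14 moved the log2 folds of 7 members by over 1.5 times, none of them called with or without it by limma. Sel1l went from -0.14 to -0.080, Atf6 from -0.047 to -0.031, Derl2 from -0.023 to -0.044, Dnajb9 from 0.011 to 0.021 and Trib3 from -0.28 to -0.47. Signs turned for Herpud1, from -0.081 to 0.034, and for Xbp1, from 0.0064 to -0.050.

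**Figure D3:**
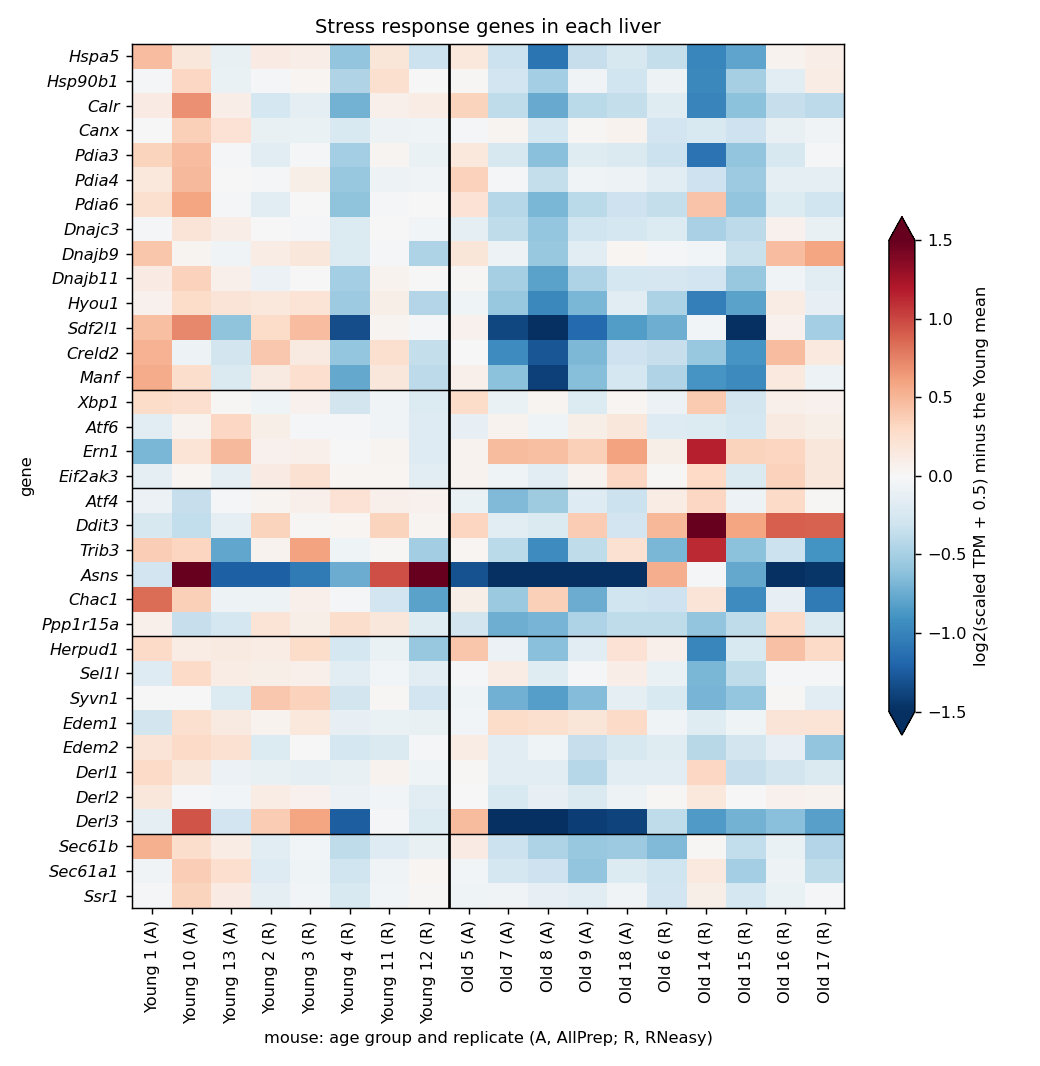
Colour gives the log2 level of each gene (rows, grouped by role) in each mouse (columns, by age and kit) minus the mean of the 8 Young mice. Chaperone rows are blue in most Old mice and in Young replicate 4, whereas the Ddit3 row is red in all 5 RNeasy libraries of Old mice.

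The chaperones varied together from mouse to mouse. Young replicate 10 had the highest value of all 18 libraries for 10 of 14 chaperones, and Young replicate 4 the lowest Young value for 13 of 14. Old replicate 8 had the lowest of all libraries for 8 of 14 and Old replicate 14 for 4. On deposited TPM, before scaling, Young replicate 10 had the highest value of all for 5 of 14, Young replicate 4 the lowest Young value for 12 and Old replicate 8 the lowest of all for 9. Old replicate 14 had instead the highest value for 3 of 6 ATF4-CHOP genes and for 2 of 4 sensors and transcription factors.

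Correlations with Hspa5 within each age described this further. Over 68 relations, the p-values were two-sided permutation values, exact in Young mice and from 100000 permutations in Old mice, adjusted over all 68. The 13 other chaperones had a median Pearson r of 0.74 across the 8 Young mice and of 0.81 across the 10 Old mice. At r of at least 0.7 stood 9 of them in Young and 10 in Old, against 1.51% and 3.22% of all genes tested. Values from the same libraries share their scaling and depth, and the median r of all genes with Hspa5 was -0.036 in Young and 0.042 in Old. The 6 ATF4-CHOP genes had median r of -0.0074 in Young and -0.074 in Old, and 0 of 12 relations passed (1 at an unadjusted permutation p under 0.05, Ppp1r15a in Old). The Old median depended on a single library, and the Young median on the kit. After centring on each kit the Old median was -0.058. Without Old replicate 14 the Old median was 0.46, with Ddit3 at 0.46, Trib3 at 0.47, Atf4 at 0.50 and Ppp1r15a at 0.62. Asns at -0.081 and Chac1 at -0.17 stayed below 0. In Young the median was 0.37 after centring on each kit, with Ddit3 at 0.41 but Atf4 at -0.41. It was 0.36 without the 2 mice farthest from the median of Hspa5. The chaperone median in Old was 0.89 without Old replicate 14, with Pdia6 at 0.85 (0.19 with it) and Sdf2l1 at 0.89 (0.54 with it).

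Manf followed Hspa5 most closely in both ages by Pearson's r. It had r = 0.99 in Young (exact permutation p = 0.000322, adjusted p = 0.00487) and r = 0.95 in Old (permutation adjusted p = 0.00113). Its Spearman rho was 0.88 in Young (permutation adjusted p = 0.0549) and 0.92 in Old (0.0138). Adjusted p-values under 0.05 were found for 5 members in Young (Manf, Creld2, Xbp1, Sdf2l1 and Dnajb9) and 12 in Old by Pearson's r, and for 0 and 5 by Spearman's rho (Manf, Hyou1, Herpud1, Pdia3 and Dnajc3 in Old). Without the 2 mice farthest from the median of Hspa5, the median r of the chaperones was 0.27 in Young (without replicates 4 and 12) and 0.83 in Old (without replicates 8 and 14). Leaving out mice by their Hspa5 level narrows its range and tends to lower r, so the lower Young median cannot show what the relation rested on. In Young, r was then 0.80 for Creld2, 0.82 for Dnajb9 and 0.65 for Sdf2l1, but -0.58 for Hyou1 and -0.35 for Dnajc3. Manf kept r = 0.95 in both ages. Each kit held too few mice of an age for a value of its own, and after centring on each kit the medians of the chaperones were 0.67 and 0.85. Xbp1 had r = 0.85 in Young and 0.068 in Old, or 0.55 in Old without replicate 14. The difference between the ages was not tested.

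**Figure D4:**
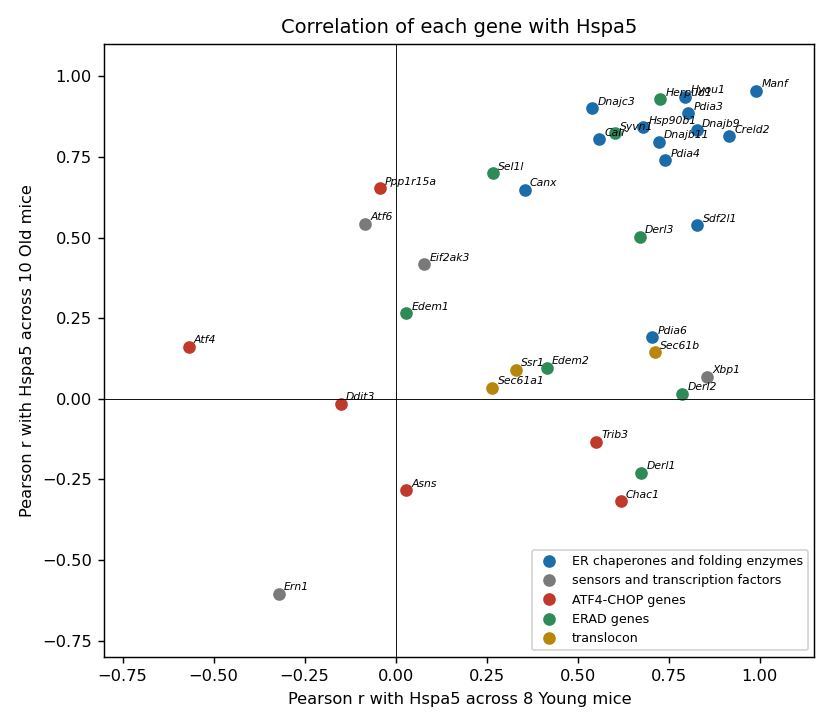
Each point is a gene, at its Pearson r with Hspa5 across 8 Young mice (x axis) and across 10 Old mice (y axis), coloured by role. Most chaperones lie at the upper right with Manf at 0.99 and 0.95, and Ddit3 lies at -0.15 and -0.015, or at 0.46 in Old without replicate 14.

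Body weight at the clamp ran from 26.6 to 34.8 in Young and from 35.1 to 55.0 in Old, in the unit of the labels, so that the groups did not overlap. The slope on weight was fitted in limma beside age and kit. None of the members was called, where 0.0864% of all genes were (12 of 13895), but 15 of 35 had a negative slope at an unadjusted p under 0.05, against 7.66% of all genes, and 0 had a positive one, against 8.25%. In all, 31 of 35 slopes were below 0, against 49.9% of all genes. Without Old replicate 14 each of the 15 negative slopes still had an unadjusted p under 0.05 in limma. Further negative slopes then passed, per 10 weight units and with unadjusted limma p. These were Hsp90b1 (-0.28, p = 0.0227), Calr (-0.35, 0.0496), Pdia3 (-0.34, 0.00838), Hyou1 (-0.38, 0.0404), Ddit3 (-0.25, 0.0434) and Herpud1 (-0.40, 0.0185). Ern1 alone then had a positive slope that passed, of 0.34 log2 per 10 weight units (unadjusted p = 0.0141 by limma). The shares of all genes in that fit are not given here. Sdf2l1 had a slope of -0.95 ± 0.29 log2 per 10 weight units (SE, adjusted p = 0.150 by limma), Creld2 of -0.69 ± 0.20 (0.140), Xbp1 of -0.30 ± 0.087 (0.140) and Hspa5 of -0.44 ± 0.20 (0.283). Ddit3 also had a negative slope, of -0.32 ± 0.15 (SE, adjusted p = 0.318 by limma), although it was higher in the heavier Old group. With weight as a term the age difference of the chaperones had a median of 0.076 in place of -0.36, and that of Ddit3 was 0.92 (adjusted p = 0.121 by limma). Since weight did not overlap between the ages, the 2 cannot be told apart here.

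**Figure D5:**
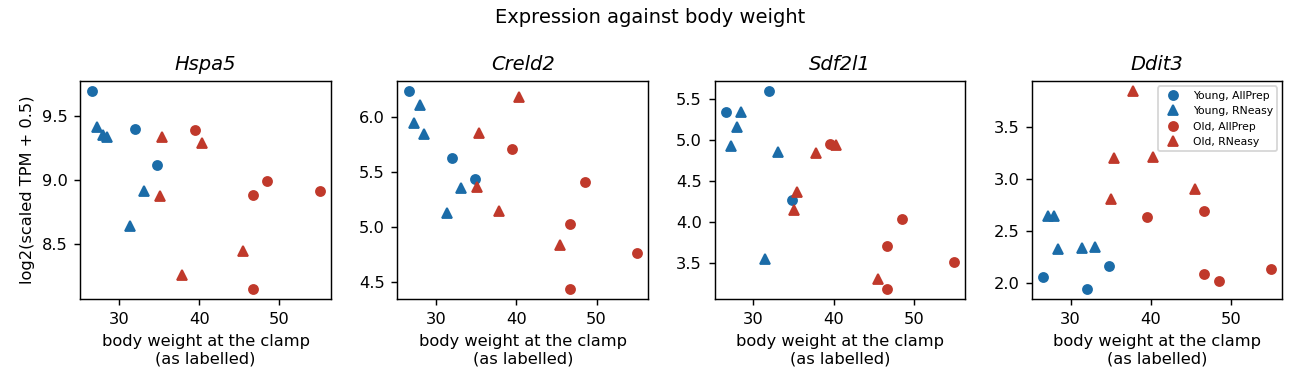
The y axis gives log2(scaled TPM + 0.5) of 4 genes and the x axis body weight at the clamp as labelled, with colour for age and symbol for kit. The fitted slopes per 10 weight units are -0.69 for Creld2 and -0.95 for Sdf2l1, and weights of Young mice end at 34.8 where those of Old mice begin at 35.1.

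Suppression of liver glucose production by insulin was 68.4% to 92.0% in Young and 25.4% to 68.4% in Old. With the same terms in limma, 0 members and 0.0% of all genes had a called slope on it. At an unadjusted p under 0.05 stood 3 members, against 5.66% of all genes with a negative and 3.45% with a positive slope. These were Edem1 (-0.079 log2 per 10 percentage points), Atf6 (-0.061) and Sec61b (0.10). The age difference was also compared between the kits. Called in limma were 0 of 35 members and 0.0% of all genes. At an unadjusted p under 0.05 stood 2 members, Sec61b (-0.53 in AllPrep minus RNeasy) and Derl2 (-0.25), against 2.32% of all genes with a negative and 1.9% with a positive difference. For 29 of 35 members this difference was below 0, against 45.7% of all genes.

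Other genes of the same pathways were compared through lists that do not hold the 35 members. Over all genes tested 2.48% were called lower and 49.2% had a log2 fold below 0, which is the background for the counts that follow. Of 35 other ER folding genes tested, 32 had a log2 fold below 0 with a median of -0.12, and 2 fell, the oligosaccharyltransferase subunit Rpn1 (by 0.29, adjusted p = 0.0413 by limma) and the translocon-associated Serp1 (by 0.38, 0.0396). Of 23 other ERAD genes 20 were below 0 with a median of -0.13, and the ubiquitin-conjugating enzyme Ube2j2 fell by 0.23 on the log2 scale (adjusted p = 0.0434 by limma). Of 21 other translocation genes 19 were below 0 with a median of -0.14, and the signal recognition particle receptor Srpr fell by 0.29 (adjusted p = 0.0380 by limma).

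Of 28 other integrated stress response genes tested (33 of 35 listed symbols were in the table), 15 were below 0 with a median of -0.061 (-0.12 without Old replicate 14). The amino acid transporter Slc38a2 fell by 0.80 ± 0.13 (SE, adjusted p = 0.00322 by limma), from 132 ± 23.2 (SD, n = 8) to 75.0 ± 22.1 scaled TPM (SD, n = 10), and the C/EBP factor Cebpb by 0.90 ± 0.15 (SE, adjusted p = 0.00379 by limma). In 10 of 10 Old mice both lay under the Young median. Of 26 other sensors and eIF2 regulators, the eIF2B subunit Eif2b3 fell by 0.32 (adjusted p = 0.0360 by limma) and the BH3-only gene Bcl2l11 by 0.42 (0.0494). None of the genes in these 5 lists was called higher in limma. At an unadjusted p under 0.05, 7 integrated stress response genes were lower and 3 higher, and 8 sensors and eIF2 regulators were lower and 3 higher. For ER folding, ERAD and translocation genes 8, 6 and 6 were lower and 0 higher. Over all genes the shares were 11.7% lower and 11.8% higher. Both kits gave log2 folds below 0 for each of the 8 named genes. Without the kit term Rpn1, Ube2j2, Srpr and Bcl2l11 were not called (limma adjusted p of 0.109, 0.0527, 0.0597 and 0.0507).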

How the data were processed

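Per the labels, total RNA of 18 livers was depleted of ribosomal RNA and sequenced. The authors deposited TPM, which divide reads by gene length and give each library the same sum. STAR 2.7.9a, Subread, featureCounts and the builds GRCm39 and mm10 are named per the submitters' processing notes, without roles. For gene lengths, annotation and strand setting nothing is given in the sources used here. Hence overlapping genes and near-identical copies are uncertain, and printed coordinates are those of RefSeq promoters in GRCm38.p6.

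Ratios of a gene's values between libraries gave whole reads for 18946 of 18946 genes (largest distance 1.9e-08, counted as whole under 0.01). Read totals cover counting error only. No pair of libraries agreed within sampling noise (lowest chi-square per degree of freedom 39.8 in Young and 79.1 in Old).

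TPM was scaled by trimmed means over tested genes (30% trimmed by log ratio and 5% by mean level, at either end) and fitted as log2(scaled TPM + 0.5), which understates changes of low genes. limma 3.58.1 in R 4.3.3 with a variance trend used age and kit as terms. Slopes on body weight and on suppression of glucose production added 1 term each, and the kit comparison an interaction. The scripts were tested on simulated data. Python 3.11.15 served for the rest, with pandas 2.3.3, numpy 2.4.6, matplotlib 3.10.9 and scipy 1.17.1. Members, lists and tests were chosen with earlier results of these data known. All 35 members are reported, with up to 4 called genes of each other pathway list. Per the labels, each library is its own animal. Alternatives covered kit, scaling, filter, pseudocount, voom on recovered reads, library weights, body weight, and each library left out.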

Additional observations from a re-analysis of the deposited data

Results flagged for a closer look

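Of 70 groups of values (35 genes in 2 ages), 8 had a highest mouse far from the others by Dixon's criterion. The criterion was taken on scaled TPM and not on logs as in the fits. Its rate of about 1 in 20 groups holds for normally distributed, independent values. Values without logs and genes that vary together need not follow that rate, so the 8 cannot be read as an excess. Old replicate 14 held 3 of these, with Ern1 at 46.8 scaled TPM (next 31.4), Ddit3 at 13.9 (next 8.74) and Trib3 at 19.3 (next 10.2). Old replicate 5 held 3 more, with Calr at 1053 scaled TPM (next 734), Pdia4 at 344 (next 264) and Derl3 at 4.78 (next 2.42). The others were Ppp1r15a in Old replicate 16 at 21.4 scaled TPM (next 14.9) and Calr in Young replicate 10 at 1343 (next 902). The markers of plasma and B cells summed to 789 scaled TPM in Old replicate 14, the highest of all libraries. Those of exocrine pancreas, of which 2 of 10 listed were in the table, summed to 102 there, also the highest. The same library was highest as well for markers of hepatocytes (179590), sinusoidal endothelium (291) and cholangiocytes (87.7). The part of any cell type in the flagged values was not tested.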

How the results depend on the processing

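No paired analysis was possible because no replicate number occurs in both groups. The slope and interaction counts stayed at 0 members in the alternatives run. Members called higher numbered 0 without the kit term, in AllPrep or RNeasy libraries alone, in RNeasy libraries without Old replicate 14 and with body weight as a term, against 1 in the main comparison, and 0 to 1 over the libraries left out. Members called lower numbered 1 with median-of-ratios scaling, 6 with library weights (Dnajc3, Ppp1r15a, Edem2, Derl1, Sec61b and Sec61a1) and 0 to 4 over the libraries left out, 3 of them without Old replicate 14. All genes called higher and lower numbered 338 and 344 in the main comparison, 112 and 60 in AllPrep, 9 and 7 in RNeasy, 41 and 29 in RNeasy without Old replicate 14 (an alternative chosen after the data were seen), 702 and 696 with library weights, 3 and 0 with body weight, and 174 to 500 and 184 to 464 over the libraries left out, and 188 were lower with no composition factor. The median of all genes was 0.055 with no composition factor, -0.0106 with median-of-ratios scaling and -0.0107 with no filter.

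With body weight as a term the median was 0.076 for chaperones, 0.044 for ERAD genes and 0.14 for ATF4-CHOP genes, and signs turned for Hspa5 (0.14), Pdia4 (0.11), Pdia6 (0.22), Dnajb11 (0.040), Sdf2l1 (0.39), Creld2 (0.42), Manf (0.20), Atf4 (0.20), Trib3 (0.077), Chac1 (0.23), Herpud1 (0.30), Edem1 (-0.078), Derl1 (0.093), Derl2 (0.20) and Derl3 (0.11). Dnajb9 and Xbp1 stood at -0.25 and -0.17 in AllPrep, at -0.0050 and -0.0098 with median-of-ratios scaling, at -0.0052 and -0.0100 with no filter, and at -0.0031 and -0.062 with library weights. With no composition factor Atf6 stood at 0.010 and Derl2 at 0.034. In RNeasy alone Atf4 stood at 0.038, Herpud1 at 0.027 and Derl2 at 0.083, and without Old replicate 14 Herpud1 at 0.24 and Derl2 at 0.049. Over the libraries left out the range was -0.061 to 0.091 for Dnajb9, -0.050 to 0.044 for Xbp1, -0.16 to 0.034 for Herpud1 and -0.050 to 0.016 for Derl2. The cause was not tested. Asns, Chac1 and Derl3 rest on few reads in some libraries, and a fold change of such genes is the least precise.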
